A study of Homo sapiens with 12 samples.

Results

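The p53 target genes described here are 32 genes that p53 is known to activate directly, taken by symbol from a table of 59653 genes; CDKN1A and the BCL2 family were left out of the set by its definition. They were measured by sequencing total RNA of human neurons grown from reprogrammed (iPSC) IMR-90 cells, a line that began as fetal lung fibroblasts. All cultures received an siRNA: 6 a negative control (siNC) and 6 an siRNA against ZCCHC17 (siZCC), an RNA-binding zinc knuckle protein. The labels name 1 cell line and nothing that shows separate cultures, so p-values measure the spread between these libraries, which may be technical. The titles also carry the letters NPC, which the labels do not explain.

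The transcription factor p53 is held low in unstressed cells by MDM2, a ubiquitin ligase that p53 itself induces. DNA damage, nucleolar stress and other insults release it, and its targets then slow the cell cycle, repair DNA, change metabolism or promote apoptosis. In postmitotic neurons p53 is best known for its part in cell death after DNA damage, and in neural progenitors for restraining division.

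Library totals ran from 76115083 to 120023356 counts, and values below are CPM, counts relative to the library total after TMM scaling. The targeted mRNA, ZCCHC17, averaged 56.9 ± 2.49 CPM under the control siRNA (SD, n = 6), and 17.6% of that level was left in siZCC. Markers of neurons (12 of 12 genes tested), neural progenitors (10 of 10) and astrocytes (8 of 8) all passed the filter on low counts, while 5 of 7 microglia and macrophage markers averaged under 0.1 CPM. Fibroblast and mesenchymal (7 of 8) and endothelial markers (5 of 6) mostly passed as well, so passing does not name the cells. In siNC, neuron markers averaged from 1.27 CPM (RBFOX3) to 1030 CPM (MAP2), and progenitor markers from 6.09 CPM (HES5) to 3550 CPM (VIM). Astrocyte markers averaged from 2.21 CPM (ALDH1L1) to 616 CPM (GFAP), so the levels do not show neurons alone. In such bulk RNA, fewer cells of a type and less RNA per cell cannot be told apart. IL1B split the libraries of each group: 3 per group held at least 5.23 CPM and 3 at most 0.1 CPM. The IL1B-high libraries were siNC replicates 2, 3 and 6 and siZCC replicates 1, 4 and 5.

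Of the 32 genes, 12 rose in siZCC and 1 fell with an adjusted p below 0.05. The test was edgeR's quasi-likelihood F test, with Benjamini-Hochberg adjustment over the 24671 genes tested. Among all genes tested 11.4% rose and 10.8% fell, or 22.2% in either direction. Among the 12625 genes averaging 5 CPM or more the shares were 16.9% higher and 15.1% lower, or 32% in all, against 11 higher and 1 lower of the 30 members at that level. All 32 passed the filter on low counts. The members' median log2 fold change was 0.073, against -0.0016 over all genes tested, and 22 of 32 were positive, against 49.6%. Apart from GDF15, every member differed by less than 1.5-fold. Because the genes were chosen with earlier results of these data known, these counts are a description of the set and not independent evidence of its direction.

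**Figure D1:**
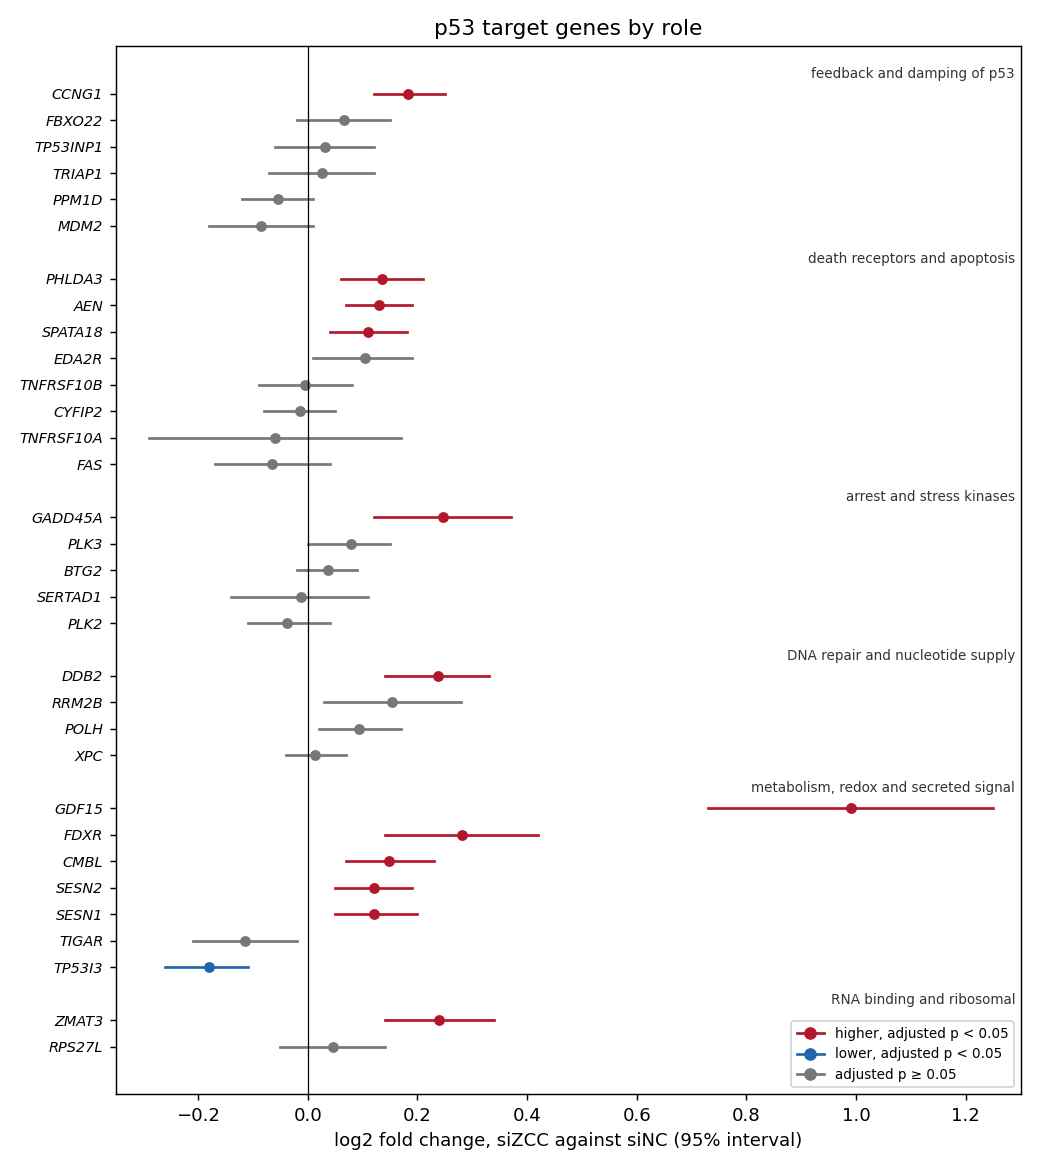
Each point is the log2 fold change of 1 gene (siZCC against siNC, x axis) with its 95% interval, grouped by the gene's role; red and blue mark an adjusted p under 0.05. GDF15 stands alone at 0.99, 11 other genes rose by 0.11 to 0.28, and TP53I3 is the gene that fell.

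To show the kind of site through which p53 acts, RefSeq promoter windows (GRCh38.p14, 250 bases before to 50 after each start) were searched for the p53 consensus site. That site is 20 bases, a direct pair of 10-base units with a core of C, 2 weak bases and G in each, and reads the same on both strands. Allowing 3 mismatches with the C and G of both cores intact, 6 of the 24 members with a window held it (25%), against 392 of 35116 windows (1.12%). The members were picked as known direct targets, so a higher share can follow from that choice alone. MDM2, AEN, DDB2, SESN1, GDF15 and RPS27L are those members. Their sites are given because they can be read beside different calls: 4 of these genes rose, and MDM2 and RPS27L did not pass the test. The RPS27L interval, -0.05 to 0.14, still holds rises of the size of SESN1 (0.12) and AEN (0.13). The capitals mark the 2 cores of 4 bases.
DDB2: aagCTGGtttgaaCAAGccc
AEN: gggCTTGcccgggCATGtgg
SESN1: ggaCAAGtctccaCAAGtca
GDF15: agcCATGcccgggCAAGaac
MDM2: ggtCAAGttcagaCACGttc
RPS27L: ggcCTAGagcagaCAAGccc
The DDB2 site had 1 mismatch to the consensus, those of AEN and MDM2 had 2, and those of SESN1, GDF15 and RPS27L had 3. It began 5 bases before the start in DDB2, 34 before in AEN, 49 before in SESN1, 69 before in RPS27L and 101 before in MDM2, and 28 bases after it in GDF15. Of 9 members that rose and have a window, 4 held the site, and of 14 not called, 2 did. A far looser pattern, which keeps only the C and G of both cores at that spacing and allows any base elsewhere, was in 23 of 24 members but also in 74% of all windows. A match describes these letters only, and many p53 sites lie outside the windows, for example in introns. Each window surrounds a RefSeq start. The windows of DDB2, MDM2, SESN1, GDF15 and RPS27L lie within the spans of these genes in GENCODE 29. Counts per gene pool the transcripts of all starts. The following pair of windows, with the 20-base site in capitals, sets the DDB2 promoter, of a gene that rose, beside the MDM2 window, of a gene that did not pass.
DDB2 window, chr11:47214724-47215023, plus strand: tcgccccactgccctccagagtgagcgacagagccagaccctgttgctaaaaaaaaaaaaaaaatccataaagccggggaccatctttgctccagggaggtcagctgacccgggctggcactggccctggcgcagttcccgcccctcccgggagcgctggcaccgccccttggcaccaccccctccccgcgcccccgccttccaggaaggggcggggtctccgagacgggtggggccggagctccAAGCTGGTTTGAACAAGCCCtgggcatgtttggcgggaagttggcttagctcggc
MDM2 window, chr12:68808774-68809073, plus strand: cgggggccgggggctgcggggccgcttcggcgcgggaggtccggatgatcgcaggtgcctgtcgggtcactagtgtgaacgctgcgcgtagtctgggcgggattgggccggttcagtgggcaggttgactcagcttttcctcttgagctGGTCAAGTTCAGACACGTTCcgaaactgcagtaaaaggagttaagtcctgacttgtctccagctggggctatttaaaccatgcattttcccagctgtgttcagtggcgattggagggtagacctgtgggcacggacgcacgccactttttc

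Of 6 genes that feed back on p53, 1 rose and 0 fell, a share (16.7%) near the 16.9% that rose among all genes at 5 CPM or more, with 0 of 6 at an unadjusted p under 0.05 in the lower direction. CCNG1 (chr5:163437569-163446151, plus strand), cyclin G1, which recruits a phosphatase to MDM2, was the one that rose. Its lowest, median and highest siNC libraries held 62.41, 67.06 and 67.44 CPM, and its siZCC libraries 70.71, 74.20 and 78.28 CPM. The CCNG1 groups did not overlap, which was so for 9.74% of all genes tested and 5.25% in the higher direction. In either direction it was so for 6 of the 32 members (18.8%). Among genes at 5 CPM or more the share was 15.3%, and 5 of the 30 members at that level (16.7%) were near it. The log2 fold change of CCNG1 was 0.18 (SE 0.0312, adjusted p 0.000571 in edgeR's quasi-likelihood test). MDM2 (chr12:68808176-68850686, plus strand), the ligase that degrades p53 and a classic readout of its activity, was not among the genes that rose. It ranged from 166.3 over 170.8 to 182.4 CPM in siNC and from 146.0 over 159.7 to 184.0 CPM in siZCC. The siZCC values lay on both sides of the siNC values: 4 of 6 below the lowest and 1 above the highest. Its log2 fold change was -0.086 (95% interval -0.18 to 0.01, adjusted p 0.204 in edgeR's test), so the interval excludes a rise of the size seen for CCNG1. Without siZCC replicate 2, its highest siZCC library, MDM2 was lower at -0.13 (adjusted p 0.0334, edgeR). PPM1D, a phosphatase that turns p53 signalling off, stood at 46.9 ± 0.842 and 45.2 ± 1.97 CPM (SD, n = 6 each; interval of the log2 difference -0.12 to 0.01). TP53INP1, a stress protein that supports p53 function and autophagy, TRIAP1, a small survival factor of mitochondria, and FBXO22, a ubiquitin ligase subunit, had log2 fold changes of 0.031, 0.026 and 0.067. FBXO22 overlaps exons of NRG4 on the other strand over 16.2% of its exon length, and NRG4 was measured at 0.424 CPM.

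Among 8 genes of death receptors and apoptosis, 3 rose and 0 fell (0 also at an unadjusted p under 0.05 in that direction). The share that rose was 37.5%, against 11.4% of all genes tested and 16.9% of those at 5 CPM or more. AEN (chr15:88621296-88632282, plus strand), an apoptosis-enhancing nuclease, ran from 94.32 over 99.78 to 103.9 CPM in siNC and from 104.2 over 108.2 to 113.2 CPM in siZCC. The groups lay close but did not overlap, and the log2 fold change was 0.13 (SE 0.0298). PHLDA3, which keeps AKT from the membrane, went from 64.6 ± 2.27 to 70.9 ± 3.34 CPM, both SD with n = 6. SPATA18, which takes part in the clearing of damaged mitochondria, had a median of 34.53 CPM in siNC and 37.91 CPM in siZCC. SPATA18 was the weakest of the calls (adjusted p 0.0274, edgeR); leaving out siNC replicate 3, 4 or 6, or siZCC replicate 1, 2, 3 or 6, ended it (adjusted p 0.0528 to 0.0782). PHLDA3 shares 19.1% of its exon length with an overlapping noncoding RNA listed at 0 counts. Of the cell-surface receptors, 0 of 4 passed edgeR's test, with 1 of 4, EDA2R, at an unadjusted p under 0.05. EDA2R, a receptor of the ectodysplasin family, stood at 44.5 ± 2.13 and 47.8 ± 2.97 CPM (adjusted p 0.0883, edgeR). It passed without siZCC replicate 5 and with a correction for GC content and length. FAS, the receptor of FAS ligand, ranged from 15.91 over 16.99 to 18.35 CPM in siNC and from 14.31 over 16.28 to 17.63 CPM in siZCC. The FAS ranges overlapped, and its log2 difference was -0.065 (95% interval -0.17 to 0.04). Exons of FAS overlap those of ACTA2, smooth muscle actin on the other strand, over 8.93% of the FAS exon length; ACTA2 averaged 179 CPM and fell by 0.57 on the log2 scale (adjusted p 0.000123, edgeR), and with the strand setting not stated its part in the FAS value was not tested. TNFRSF10B, a TRAIL receptor, stood at 89.0 ± 4.33 and 88.6 ± 4.74 CPM, with an interval of -0.09 to 0.08. Its relative TNFRSF10A was near 1.4 CPM in both groups, where the interval of -0.29 to 0.17 is wide. CYFIP2, an actin regulator of the WAVE complex that neurons express strongly, stood at 266 ± 10.5 and 264 ± 10.1 CPM.

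Growth arrest genes gave 1 call in 5, or 20%, which is no more than the 22.2% called over all genes tested. GADD45A, which binds PCNA and halts cells before mitosis, ranged from 32.45 over 33.31 to 36.37 CPM in siNC and from 32.76 over 41.32 to 44.47 CPM in siZCC. In 5 of 6 siZCC libraries it lay above every siNC library, and siZCC replicate 4 lay within the siNC range. The log2 fold change was 0.25 (SE 0.0594; adjusted p 0.00663, edgeR). BTG2, an antiproliferative gene and the most abundant member per exon length at 42.0 CPM per kilobase in siNC, stood at 116 ± 2.04 and 119 ± 3.53 CPM. The interval of its log2 difference, -0.02 to 0.09, is among the narrowest of the set. PLK3 and PLK2, polo-like kinases of the stress response, had log2 fold changes of 0.079 and -0.038 (adjusted p 0.122 and 0.499, edgeR), and SERTAD1, a cofactor of CDK4 and E2F, had -0.013.

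All 4 genes of DNA repair and nucleotide supply had a positive log2 fold change, and 1 passed. That share, 25%, lies between the 22.2% called over all genes tested and the 32% at 5 CPM or more. DDB2 (chr11:47214465-47239240, plus strand), the damage sensor that starts repair of ultraviolet lesions, ran from 36.82 over 40.21 to 42.04 CPM in siNC and from 42.21 over 47.79 to 50.79 CPM in siZCC. The groups did not overlap, by a narrow margin set by siZCC replicate 5. The log2 fold change was 0.24 (SE 0.0440; adjusted p 0.00107, edgeR). RRM2B, the p53-inducible subunit of ribonucleotide reductase, went from 76.8 ± 4.45 to 85.4 ± 8.99 CPM (log2 fold change 0.15, adjusted p 0.0702, edgeR). It passed when siNC replicate 1 or siZCC replicate 4 or 5 was left out (adjusted p 0.0252 to 0.0464). POLH, the polymerase that copies past ultraviolet damage, had 0.094 (adjusted p 0.0756, edgeR). POLH passed when siNC replicate 5 or siZCC replicate 4 was left out. It also passed with the IL1B split as a block and with a correction for GC content and length. XPC, a partner of DDB2 in damage recognition, stood at 94.6 ± 1.70 and 95.5 ± 2.71 CPM, and its interval of -0.04 to 0.07 excludes a rise as large as that of DDB2. XPC shares 23.8% of its exon length with an antisense RNA (0.669 CPM) and 6.63% with LSM3 on the other strand (31.3 CPM, log2 fold change -0.13, adjusted p 0.0318 in edgeR); their part in the XPC value was not tested.

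The group of metabolism, redox control and secreted signals had the most calls, 5 higher and 1 lower of 7. The share called was 85.7%, against 22.2% of all genes tested and 32% of those at 5 CPM or more. GDF15 (chr19:18374731-18389176, plus strand), a secreted stress cytokine, had the largest change of the set. It ran from 2.61 over 2.97 to 4.24 CPM in siNC and from 4.79 over 6.52 to 7.27 CPM in siZCC, from at least 259 counts per library. Every siZCC library lay above every siNC library, and the log2 fold change of 0.99 (SE 0.122; adjusted p 2.86e-05, edgeR) is a rise of 1.99-fold in a gene of low level, 1.53 CPM per kilobase in siNC. FDXR, ferredoxin reductase of mitochondria, averaged 46.6 ± 5.43 CPM in siNC and rose to 56.7 ± 4.71 CPM in siZCC (SD, n = 6 each), by 0.28 on the log2 scale (SE 0.0676). It varied within siNC, where replicate 2 reached 56.12 CPM, and the groups overlapped. CMBL, a hydrolase, rose by 0.15, and both sestrins, antioxidant proteins that restrain mTORC1, rose by 0.12: SESN2 from 87.0 ± 3.49 to 94.6 ± 3.45 CPM and SESN1 from 36.9 ± 1.07 to 40.1 ± 2.11 CPM. Adjusted p for these 3 was 0.00865, 0.0130 and 0.0209 (edgeR). SESN1 missed the threshold without siNC replicate 4 (adjusted p 0.0516). TP53I3 (chr2:24077433-24085861, minus strand), a quinone oxidoreductase induced early in p53-dependent apoptosis, went the other way. It ranged from 39.50 over 41.96 to 44.06 CPM in siNC and from 34.19 over 36.56 to 39.35 CPM in siZCC. The groups did not overlap, as for 4.5% of all genes in the lower direction, and the fold change was -0.18 on the log2 scale (SE 0.0356; adjusted p 0.00165, edgeR). TIGAR, a phosphatase that diverts glucose from glycolysis, had -0.11 (adjusted p 0.0689, edgeR); it was lower without siNC replicate 2 or 5 (adjusted p 0.0262 and 0.0356). A gene model on the same strand, AC008012.1, covers 42.6% of the TIGAR exon length and was measured at 0.0161 CPM.

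ZMAT3 and RPS27L complete the set. ZMAT3 (chr3:179017223-179072279, minus strand), a zinc finger protein that binds RNA and regulates splicing, ran from 108.9 over 120.2 to 124.7 CPM in siNC and from 129.9 over 140.3 to 153.3 CPM in siZCC. Its groups did not overlap, and the log2 fold change was 0.24 (SE 0.0456; adjusted p 0.00129, edgeR). RPS27L, a ribosomal protein paralog, stood at 91.5 ± 4.01 and 94.4 ± 7.05 CPM (interval -0.05 to 0.14). Its near-identical partner RPS27, at 250 ± 13.8 and 279 ± 16.7 CPM, rose by 0.16 (SE 0.0423; adjusted p 0.0139, edgeR); how the counting divides reads between the pair is not stated, so both values are uncertain.

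**Figure D2:**
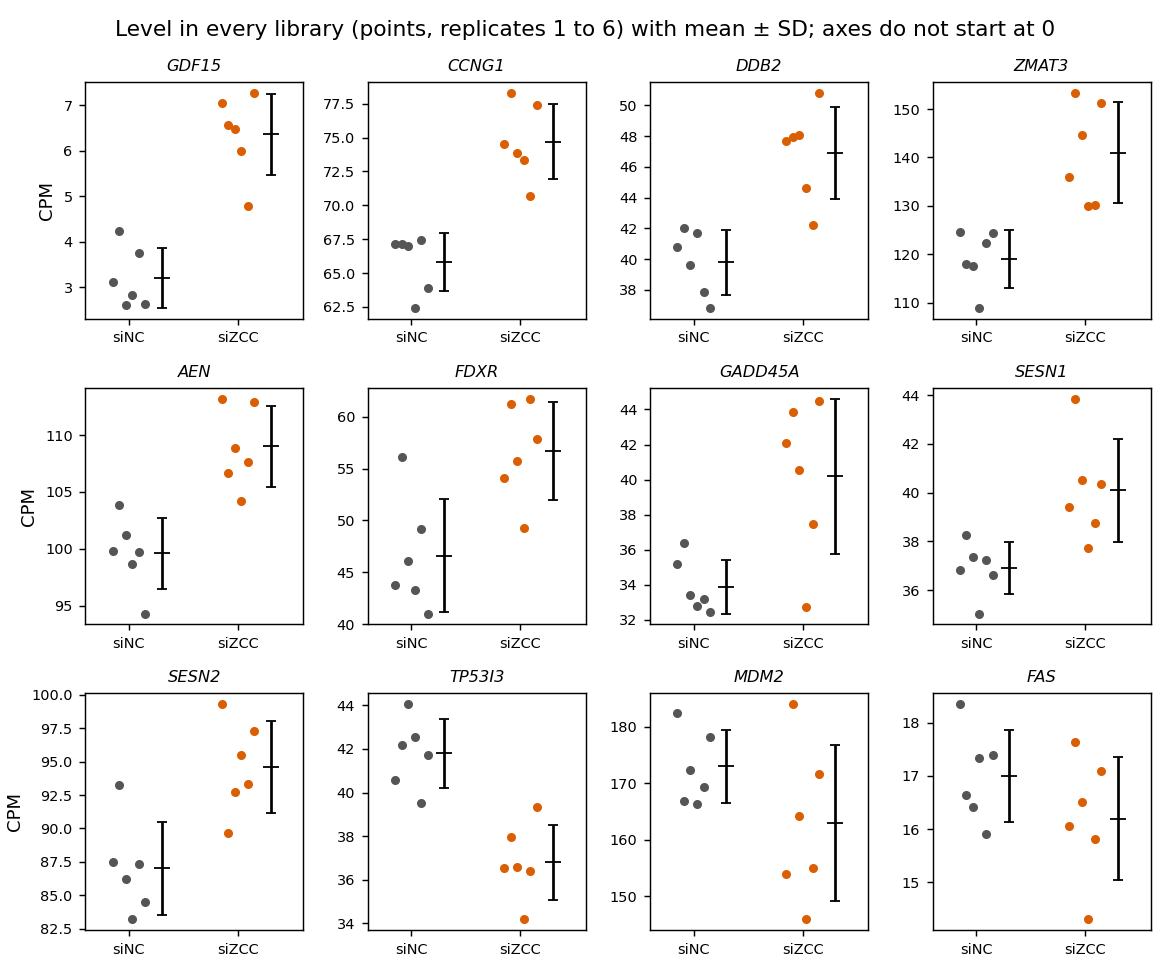
CPM of 12 genes in every library (points, replicates 1 to 6 from left to right) with the group mean and SD beside them. GDF15, CCNG1, DDB2, ZMAT3 and AEN have all 6 siZCC points above the siNC points, TP53I3 has them all below, and MDM2 and FAS overlap.

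Per exon length, the members differed widely in level in siNC. BTG2 (42.0 CPM per kilobase), CYFIP2 (25.4), SESN2 (25.2) and TP53INP1 (24.5) were highest, and TNFRSF10A (0.482) and GDF15 (1.53) lowest. Among the genes that rose, levels ran from that of GDF15 to that of SESN2. CDKN1A, the cell cycle inhibitor p21 and central p53 target that the set leaves out, was at 213 CPM per kilobase in siNC and 322 in siZCC, above every member, and rose by 0.59 (SE 0.0705; adjusted p 2.21e-05, edgeR).

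**Figure D3:**
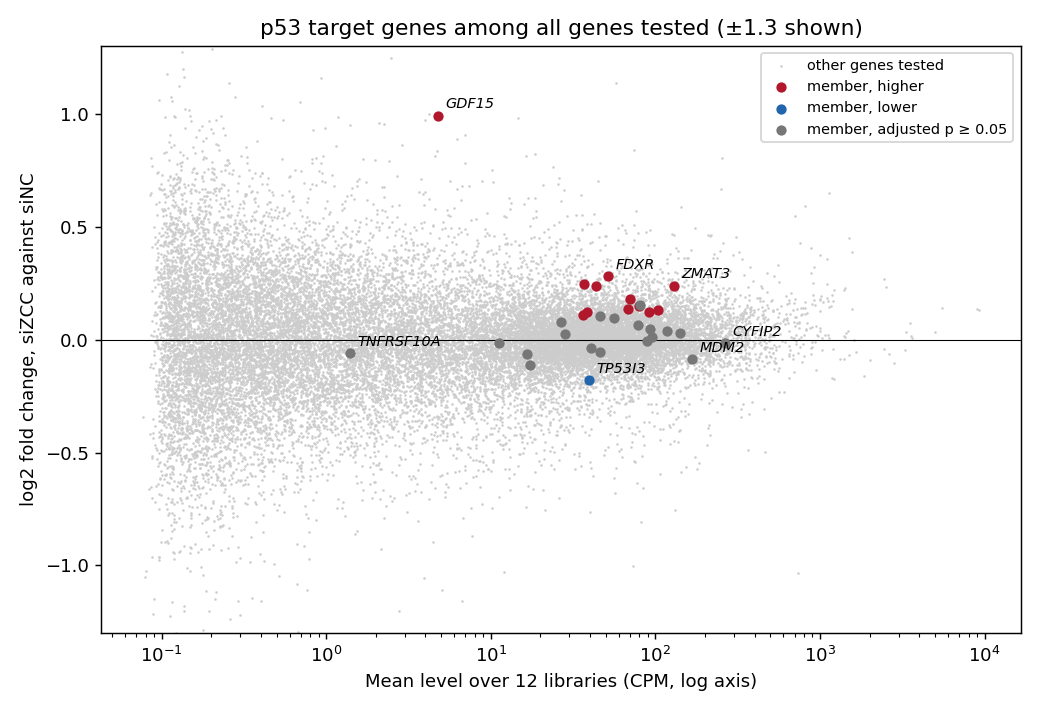
Mean CPM over 12 libraries (log axis) against log2 fold change for the genes tested with a change within ±1.3, with the 32 p53 targets coloured by call. GDF15 is the lone member far from 0; the others lie between -0.18 and 0.28.

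The members did not stand equally high in all siZCC libraries. Measured as the median over the 32 genes of log2 CPM minus the siNC mean, siZCC replicates 2 and 6 stood at 0.134 and 0.129, replicates 3 and 1 at 0.082 and 0.069, and replicates 5 and 4 at 0.006 and -0.011. The siNC libraries lay between -0.030 and 0.026. Replicate 4 was the lowest siZCC library for 22 of 32 members (68.8%), against 17.3% of all genes tested, and replicate 2 the highest for 14 (43.8%), against 22.2%. GDF15, CCNG1, DDB2, ZMAT3 and AEN, whose groups do not overlap, were by that definition above every siNC library in replicate 4 too. Replicate 4 had the smallest total of all libraries, 76115083 counts, and replicate 2 the largest of siZCC, 105389055; the order of the 6 totals is that of the 6 medians. Replicates 1, 4 and 5 were also the IL1B-high siZCC libraries. The parts of depth and of the IL1B split in this order were not tested apart. With all libraries thinned to the smallest total, 12 members were called, 11 higher and 1 lower. The library medians were not recomputed on the thinned counts, so their order was not tested that way.

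**Figure D4:**
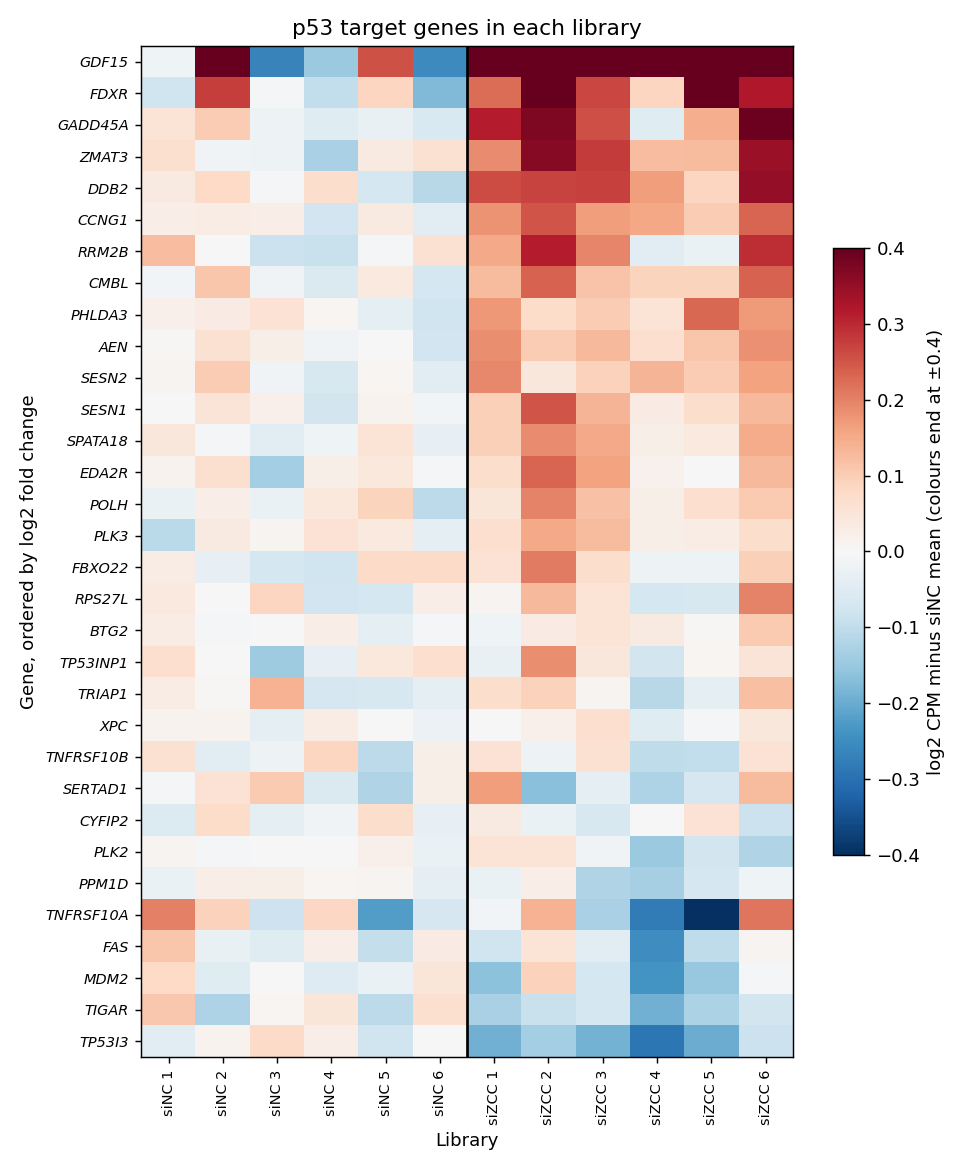
Colour gives log2 CPM minus the siNC mean for each gene (rows, ordered by log2 fold change) in each library (columns), with colours ending at ±0.4. GDF15 in the top row is above the siNC mean in all 6 siZCC columns, GADD45A is so in all but replicate 4, and TP53I3 in the lowest row is below it in all 6.

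Within the IL1B-low libraries (3 per group) 9 members were called, all higher, with a median log2 fold change of 0.12, where 1602 of 24824 genes tested were called (6.45%; 3.5% higher and 2.95% lower). Within the IL1B-high libraries 3 members were called, 1 higher (GDF15) and 2 lower (TP53I3 and MDM2), with a median of 0.031, where 2043 of 24925 genes were called (8.2%; 4.22% higher and 3.98% lower). The log2 fold change was larger in the IL1B-low libraries for 29 of 32 members (90.6%), against 49.7% of all genes tested. GADD45A had 0.35 there and 0.13 in the IL1B-high libraries, ZMAT3 0.34 and 0.13, and MDM2 0.0049 and -0.19. The test of that difference itself (an interaction term in edgeR's quasi-likelihood test) passed for 0 of 32 members and 0 of 24671 genes, with a smallest adjusted p of 0.935 among members. At an unadjusted p under 0.05 there were 6 members and 1177 genes.

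Other genes of the pathway were read from the same fit. Of 63 further p53 targets tested, among 66 listed, 18 rose (28.6%) and 5 fell (7.94%), with a median log2 fold change of 0.048. Among all genes tested the shares were 11.4% and 10.8%, and at 5 CPM or more 16.9% and 15.1%. ABHD4, a phospholipase, rose by 0.30 (SE 0.0390) and SLC12A4, a potassium-chloride cotransporter, by 0.28 (SE 0.0374). SULF2, a sulfatase that edits heparan sulfate, had -0.34 (SE 0.0327) and PRDM1, a transcriptional repressor, -0.51 (SE 0.102). Regulators and cofactors of p53 showed no common direction: 6 of 32 rose and 6 fell, with a median of -0.0091. Each share, 18.8%, was near that of all genes at 5 CPM or more. SETD7, a lysine methyltransferase of p53, rose by 0.28 and TP53BP2, which steers p53 to apoptosis genes, by 0.14, while the deacetylase HDAC1 had -0.13 and PPP1R13B, a relative of TP53BP2, -0.21. The largest adjusted p among these 8 named genes was 0.00413 (edgeR).

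Cell cycle genes that p53 lowers indirectly, through p21 and the DREAM repressor complex, gave the largest shift of the lists. Of 30, 26 fell and 0 rose (0 also at an unadjusted p under 0.05, and 0 by DESeq2 or limma voom), with a median log2 fold change of -0.38. The share that fell was 86.7%, against 10.8% of all genes tested and 15.1% of those at 5 CPM or more. CCNB1, mitotic cyclin B1, ran from 47.49 over 50.59 to 53.11 CPM in siNC and from 31.05 over 32.31 to 36.81 CPM in siZCC (-0.61, SE 0.0410). BIRC5, survivin, had -0.51 (SE 0.0376). These genes are also those of dividing cells, so their level moves with the share of such cells, whose part here was not tested.

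Several members, among them GDF15, SESN2, GADD45A and TNFRSF10B, are also induced by ATF4, the factor of the integrated stress response. Of 20 genes of that response outside the set, 13 rose and 0 fell (0 also at an unadjusted p under 0.05, and 0 by DESeq2 or limma voom), with a median log2 fold change of 0.20. The share that rose was 65%, against 11.4% of all genes tested and 16.9% of those at 5 CPM or more. SHMT2 (0.30, SE 0.0294), a mitochondrial enzyme of serine metabolism, and XPOT (0.30, SE 0.0358), a tRNA exporter, had the smallest p. ATF4 mRNA itself averaged 237 CPM in both groups (SD 9.58 in siNC and 6.63 in siZCC, n = 6 each); it is controlled largely by translation, which counts do not show. The part of this response in the values of the shared genes was not tested.

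**Figure D5:**
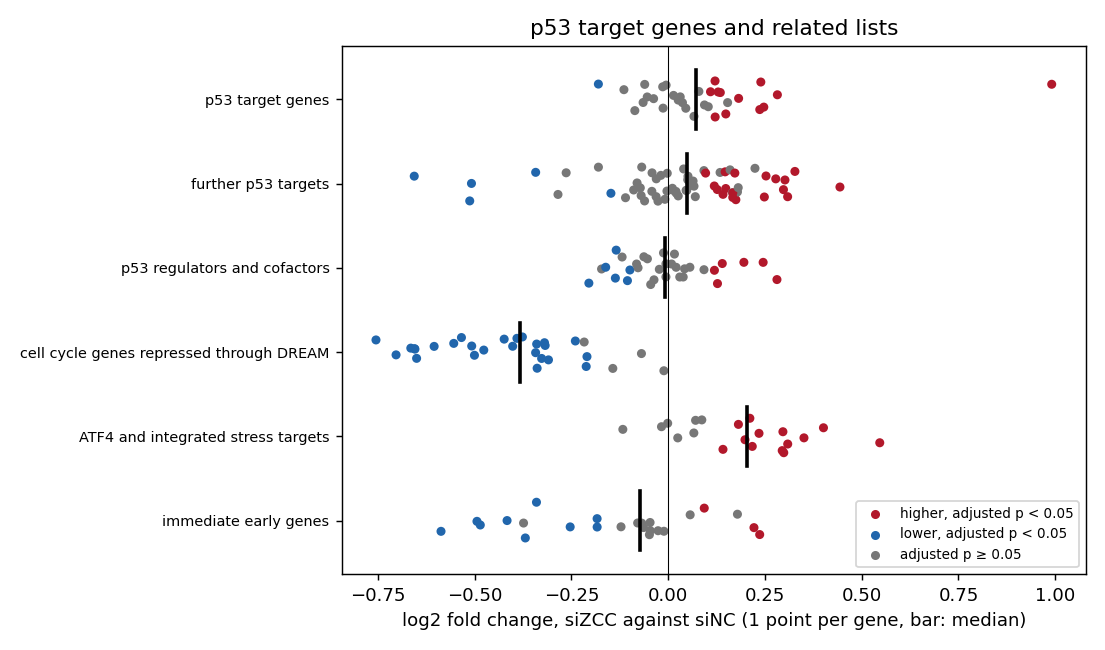
Each point is the log2 fold change of 1 gene (siZCC against siNC) in the p53 target genes and in 5 related lists; black bars are medians and red and blue mark an adjusted p under 0.05. Medians run from -0.38 for the cell cycle genes to 0.20 for the integrated stress genes, with the p53 targets at 0.073.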

How the data were processed

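The 12 libraries were prepared with a directional kit from total RNA, per the labels. The authors deposited whole-number counts per gene symbol; the submitters' processing notes name bcl2fastq 2.17, STAR 2.7.6a, featureCounts 2.0.1 and build GRCh38. The annotation and strand setting are not given in the sources used here, so how reads of overlapping genes or close paralogs were assigned is not known. Groups and replicate numbers come from the titles.

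Counts were analysed with edgeR 4.0.16 in R 4.3.3: filterByExpr (24671 genes kept), TMM factors, and the quasi-likelihood test over all 12 libraries without covariates, with Benjamini-Hochberg adjustment over all genes kept and a threshold of 0.05. Log2 CPM used a prior count of 2; the standard error is the fold change divided by the square root of F. Positions and union exon lengths are from GENCODE 29 (GRCh38), with which all 32 members matched; promoters are from RefSeq (GRCh38.p14), where 24 matched, and not TP53INP1, FBXO22, TNFRSF10A, TNFRSF10B, PHLDA3, GADD45A, RRM2B or CMBL. Every pair of libraries within a group differed by more than counting noise (chi-square over degrees of freedom 5.17 to 25.9). Over replicates the biological coefficient of variation was 6.55% for the fit as a whole; for members of few counts, such as TNFRSF10A with 87 to 182 per library, counting error limits the precision as well. On simulated counts for this comparison (24347 genes) the test recovered 95.2% of genes altered by a log2 value of 1, 68.6% at 0.5 and 43.9% at 0.25, and 10 of 146 calls were on unchanged genes. Few genes were altered there (62, 70 and 66 at these sizes), and its 146 calls compare with 5481 in the data. The adjustment was therefore stricter in the simulation, so these shares do not give the recovery to be had for the members.

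The members and lists were chosen with earlier results of these data known. All members are described; from each further pathway list the rule names the 2 genes of smallest p in each direction, and ATF4 and ACTA2 were named after their values were seen. The gene of p53 itself is not reported here. Alternatives were other scalings (DESeq2 size factors, upper quartile), filters (none, a mean count of 50), DESeq2 1.42.0, limma voom 3.58.1, the replicate number or IL1B split as a block, and leaving out each library. A correction for GC content and length, thinning, fits within each side of the IL1B split and their interaction were chosen after seeing the data. Figures were drawn with matplotlib 3.10.9.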

Additional observations from a re-analysis of the deposited data

Results flagged for a closer look

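The highest and lowest library of each group of 6 were compared with their neighbours for the 32 members, ZCCHC17 and CDKN1A, or 68 groups. Dixon's test at its 95% critical value singled out 1 library, where chance alone gives about 3.4. EDA2R in siNC replicate 3 was at 40.5 CPM, while the other 5 siNC libraries held 44.3 to 46.5 CPM; the gap made up 0.651 of the whole range.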

How the results depend on the processing

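The count of 13 members called stayed between 12 and 16 under other scalings, filters, tests, blocks, thinning and a GC and length correction, and between 11 (without siNC replicate 4) and 15 (without siNC replicate 5, or siZCC replicate 4 or 5) when single libraries were left out; all 13 kept their direction in each of these fits. The split of calls over all genes was 46.4% higher with upper quartile scaling and 54.7% with the GC and length correction, against 51.4%, and that of the members 92.3% and 93.8%, against 92.3%.

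Replicate numbers did not pair the libraries: same-numbered libraries correlated between -0.077 and 0.018 in their deviations. With the replicate number as a block 13 members were called (12 higher, 1 lower), losing SPATA18 (adjusted p 0.0593) and gaining RRM2B (adjusted p 0.0359), and 4902 genes in all.

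Fits within 1 side of the IL1B split hold 6 libraries, which lowers counts. In the IL1B-high libraries 2043 of all genes, 3 members, 10 further p53 targets, 1 p53 regulator and 7 immediate early genes were called, and in the IL1B-low libraries 1602, 9, 9, 5 and 3. Signs of members near 0 turned: TRIAP1 to -0.0619, TP53INP1 to -0.0125, CYFIP2 to 0.0268, XPC to -0.0048 and RPS27L to -0.0804 in the IL1B-high libraries, MDM2 to 0.0049, TNFRSF10A to 0.0564, TNFRSF10B to 0.0182 and SERTAD1 to 0.0397 in the IL1B-low ones, and TNFRSF10B to 0.0100 with the GC and length correction; none of these passed its test and the cause was not tested. Leaving out single libraries moved TNFRSF10B between -0.0261 and 0.0150, CYFIP2 between -0.0285 and 0.0003, SERTAD1 between -0.0548 and 0.0172, TP53INP1 between -0.0017 and 0.0535 and XPC between -0.0008 and 0.0283. ZCCHC17 moved between -2.53 and -2.49.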

Other observations

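Immediate early genes, which share inducers with BTG2, PLK2, PLK3 and SERTAD1, were counted outside the p53 set: of 24 tested, 3 rose, 9 fell and 12 did not pass, with a median log2 fold change of -0.074. Over all genes tested 11.4% rose and 10.8% fell. NR4A1, an orphan nuclear receptor, rose by 0.22 (SE 0.0348) and JUND, an AP-1 subunit, by 0.24, while KLF6, a zinc finger factor, had -0.25 (SE 0.0409) and CCN1, a matricellular protein, -0.49 (SE 0.0958). The largest adjusted p among these 4 was 0.00276 (edgeR).

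Cell type markers were read from the same fit. Their counts stand beside 11.4% higher and 10.8% lower among all genes tested, and 16.9% and 15.1% at 5 CPM or more. The share called in either direction was 41.7% for neuron, 40% for neural progenitor, 50% for astrocyte and 40% for endothelial markers. At 5 CPM or more it was 32% of all genes, and the lists are short. Of 12 neuron markers 5 fell and 0 rose (0 also at an unadjusted p under 0.05, edgeR), and their summed level was 3330 to 3740 CPM in siNC and 3020 to 3430 CPM in siZCC. Of 10 neural progenitor markers 3 rose and 1 fell, with sums of 6110 to 6490 and 6160 to 6700 CPM, and of 8 astrocyte markers 3 rose and 1 fell, with 1640 to 1860 and 1700 to 2030 CPM. Fibroblast and mesenchymal markers (7 of 8 tested) had 1 higher and 2 lower, with 179 to 409 and 157 to 288 CPM. Pluripotency markers (3 of 6 tested) had 2 higher, with 15.5 to 17 CPM in siNC and 20 to 21.9 CPM in siZCC. Endothelial markers (5 of 6 tested) had 2 lower, with 12.4 to 17.6 and 8.62 to 10.7 CPM. Microglia and macrophage markers (2 of 7 tested) had 0 calls and 0 at an unadjusted p under 0.05 in edgeR, with 1.21 to 2.32 and 1.37 to 2.13 CPM. The part of culture makeup in the values of the p53 targets was not tested.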
